A study of Mus musculus with 6 samples.

Results

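The genes described here encode the motors that carry cargo along microtubules between cell divisions, namely 14 kinesin genes, 10 genes of cytoplasmic dynein, 9 genes of its activator dynactin and 5 genes of dynein regulators and adaptors. They were chosen by name, and all 38 were found among the 22298 entries of the expression table. Kinesins of mitosis were left out. Kinesin-1 and 11 other interphase and ciliary kinesin genes are also outside the 38 and are read as lists below. RNA was sequenced from ocular lenses of C57BL/6 mice at postnatal day 0. The study compared 3 libraries of wild-type (WT) lenses with 3 libraries of lenses labelled Fyco1-/-, each library being a biological replicate of 10 pooled lenses. The labels used here do not describe how the Fyco1 allele was made or say which lenses came from which animals. Levels are FPKM, fragments scaled for gene length and sequencing depth. The gene lengths the authors used are not given, and every ratio or ranking between genes depends on them. Comparison between libraries still depends on how the libraries are scaled, and other scalings are given below. Library values are always given in the order A, B, C.

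Kinesins mostly walk toward the plus ends of microtubules and dynein toward the minus ends, and dynein needs dynactin and an adaptor to move over long distances. Fyco1 itself is an adaptor that links autophagosomes and late endosomes to kinesin. Lens fibre cells elongate greatly and lose their organelles, and autophagosomes and endosomes in such cells travel on microtubules.

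Fyco1 measured 5.40, 5.21 and 5.11 FPKM in WT and 4.61, 4.59 and 4.87 FPKM in Fyco1-/-, which was not called different (limma adjusted p = 0.273). The table gives whole genes only, so this level cannot show whether the allele is disrupted. Fibre genes dominated every library, with Cryaa between 114749 and 122145 FPKM. Of 7 markers of lens epithelium, which is the dividing layer, none was called higher and 3 were called lower in Fyco1-/-, and their summed level ran from 525 to 581 FPKM in WT and from 440 to 467 FPKM in Fyco1-/-. In whole lenses, fewer cells of a type and less RNA per cell cannot be told apart. The part of this marker difference in the motor gene results was not tested. Neuron and retina markers were also read, because several of these motors are known from neurons. Over 10 genes they summed to 4.61 to 5.96 FPKM in WT and 3.23 to 4.14 FPKM in Fyco1-/-, without overlap. Only 2 of them were abundant enough to be tested by limma, Tubb3 (log2 -0.39) and Elavl4 (log2 0.08), and neither was called. Of the 10, 8 stayed below 1 FPKM in all 6 libraries, Snap25 at no more than 0.0599 FPKM. The part of this lower sum in the motor gene results was not tested either. Depth, estimated from the smallest steps of the values, was 17.06 to 20.04 M reads per library.

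In Fyco1-/- lenses 2 of the 38 genes rose, the kinesin gene Kif1c and the dynactin gene Actr10, and 1 fell, the kinesin gene Kif13a. All 38 were abundant enough to be tested. By comparison, 8.43% of all 12001 tested genes were called, 3.42% higher and 5.02% lower, so the 7.89% of motor genes called by limma is close to that share. The authors' deposited table, described below, calls 21.1% of the motor genes, against 9.37% of its genes with an adjusted p. The 38 genes were also more abundant than the tested genes, with a median level of 13.1 against 4.33 FPKM over the libraries. The choice of genes bears on this, because the 11 interphase and ciliary kinesin genes left out reached at most 1.11 FPKM. At an unadjusted p under 0.05 there were 11 motor genes, 7 higher and 4 lower (28.9%), against 24.4% of all tested genes. The call is a Benjamini-Hochberg adjusted p under 0.05 from limma on log2(FPKM + 0.5), over all tested genes, and log2 fold changes are on that scale, Fyco1-/- over WT. The median log2 fold change was -0.02 for the motor genes and -0.04 for all tested genes, and its median size was 0.11 and 0.12. On this scale no motor gene changed by more than a log2 of 0.32 in size. That bound depends on the added constant, and with 0.1 in place of 0.5 the log2 fold change of Kif16b was -0.39. The 3 values of 1 genotype lay wholly above those of the other for 13 motor genes (34.2%), 7 of them higher and 6 lower in Fyco1-/-, against 29.7% of all tested genes (11.1% higher and 18.6% lower). Of all called genes 40.5% were higher in Fyco1-/-, or 56.5% with median-of-ratios scaling, under which 3 motor genes were called higher and none lower.

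**Figure D1:**
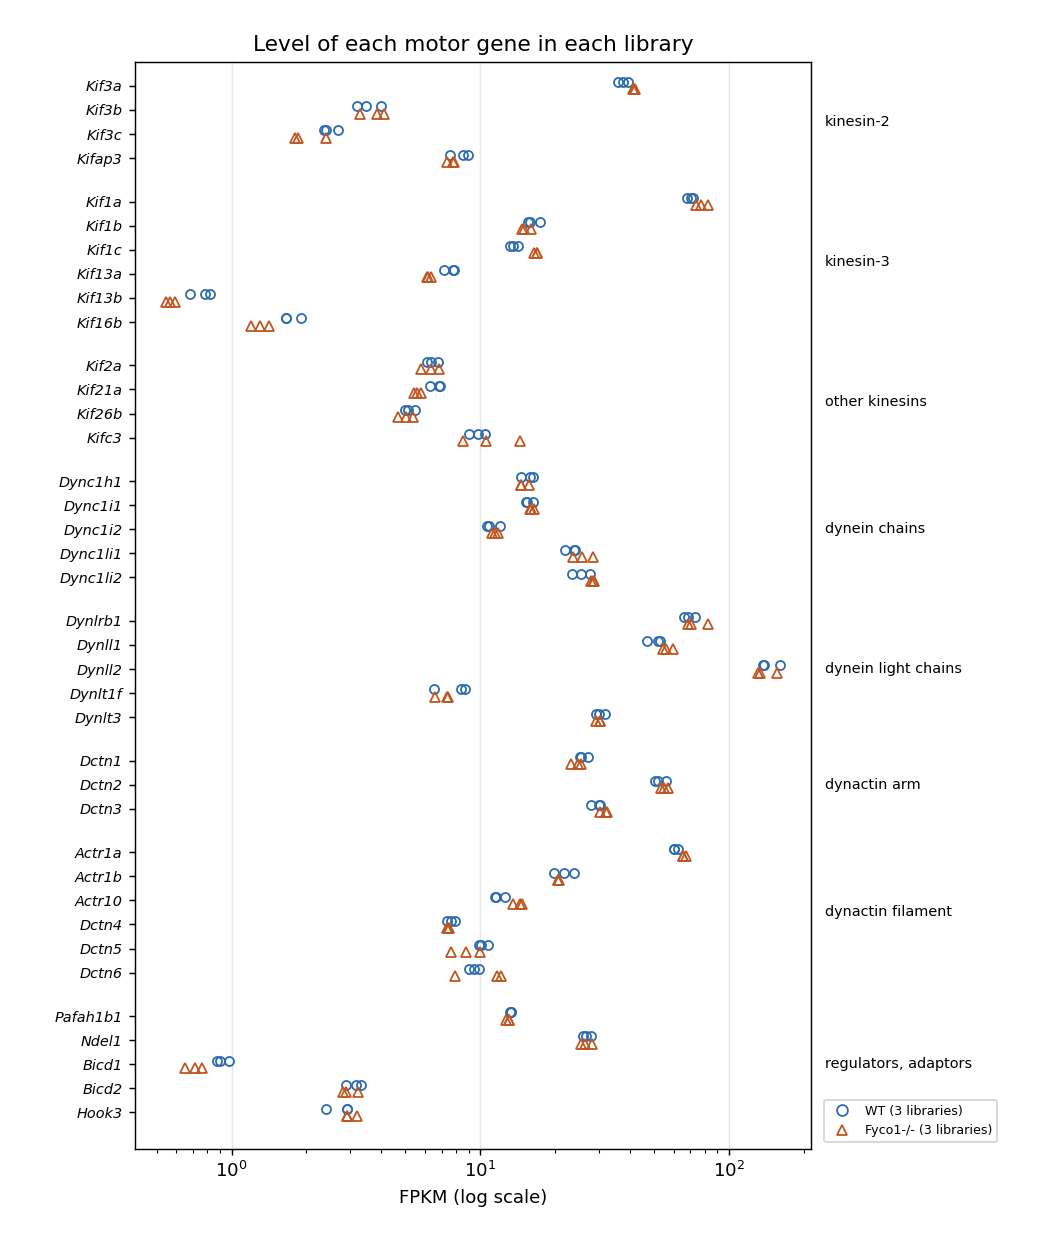
Level of each of the 38 motor genes in each library, as FPKM on a log scale, with circles for the 3 WT libraries and triangles for the 3 Fyco1-/- libraries, grouped by role. Levels span from Kif13b near 0.664 FPKM to Dynll2 near 143 FPKM, and for most genes the genotypes overlap.

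The kinesin-2 motor is a heterodimer of Kif3a with Kif3b or Kif3c, joined by the cargo-binding subunit Kifap3, and is known for transport in cilia and of endosomes. Kif3a measured 35.7, 37.6 and 39.1 FPKM in WT and 41.3, 41.5 and 42.1 FPKM in Fyco1-/-. Every Fyco1-/- value lay above every WT value, but the log2 fold change of 0.15 (SE 0.05) was not called (limma adjusted p = 0.0882). Kif3b measured 3.47, 3.19 and 3.97 FPKM in WT and 4.11, 3.27 and 3.84 FPKM in Fyco1-/-, overlapping between genotypes. Kif3c, the alternative partner, measured 2.67, 2.41 and 2.35 FPKM in WT and 2.41, 1.85 and 1.81 FPKM in Fyco1-/- (log2 -0.25, SE 0.12, adjusted p = 0.243). Its highest Fyco1-/- value fell among the WT values, and 2617 of its 7406 exon bases overlap the opposite-strand gene 1110002L01Rik, with a strand setting that is not given. Kifap3 ran from 7.53 to 8.91 FPKM in WT and from 7.36 to 7.86 FPKM in Fyco1-/-. The subunits were therefore far from equal in FPKM. Over the 6 libraries Kif3a stood 10.9 times above Kif3b, 17.6 times above Kif3c and 4.94 times above Kifap3. In no single library was Kif3a less than 9.85 times Kif3b. None of the 4 kinesin-2 genes was called by limma, 1 (Kif3a) had an unadjusted p under 0.05, and Kif3a was also called in the authors' deposited table (log2 0.19, adjusted p = 0.0239).

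The kinesin-3 genes held 2 of the 3 calls, in opposite directions. Kif1c (ENSMUSG00000020821, GRCm38 chromosome 11, 70700548 to 70731964, plus strand) encodes a motor of secretory vesicles and Golgi traffic. Its level was 13.5, 14.2 and 13.2 FPKM in WT and 16.9, 17.0 and 16.5 FPKM in Fyco1-/-. The genotypes were well apart, with a gap wider than the spread within either. Kif1c rose from 13.6 ± 0.502 to 16.8 ± 0.282 FPKM (SD, n = 3 for each genotype, log2 0.29, SE 0.06, limma adjusted p = 0.0114). The call was kept in all 15 alternative settings, with adjusted p from 0.00411 to 0.0452.

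Kif13a (ENSMUSG00000021375, GRCm38 chromosome 13, 46749087 to 46929867, minus strand) encodes a motor of recycling endosomes and of mannose 6-phosphate receptor vesicles. It measured 7.84, 7.80 and 7.15 FPKM in WT and 6.15, 6.34 and 6.12 FPKM in Fyco1-/-, with no overlap. Kif13a fell from 7.59 ± 0.386 to 6.20 ± 0.118 FPKM (n = 3 per genotype, log2 -0.27, SE 0.07, limma adjusted p = 0.0447). That call sat close to the threshold. It was lost without any 1 library other than WT C, and with median-of-ratios scaling (adjusted p = 0.0518) or with no filter on low values (adjusted p = 0.0935), reaching at most 0.141.

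The other kinesin-3 genes were not called. Kif1a, known for carrying synaptic vesicle precursors in neurons, was the most abundant kinesin here at 68.0, 71.8 and 70.3 FPKM in WT and 82.3, 74.0 and 77.3 FPKM in Fyco1-/-. All Fyco1-/- values of Kif1a exceeded those of WT (log2 0.15, SE 0.05, adjusted p = 0.0863). The authors' deposited table calls Kif1a (log2 0.20, adjusted p = 0.000951). An estimated 10829 to 14437 reads lay behind each of its values. Kif1b, which carries mitochondria and synaptic vesicle precursors by isoform, measured 17.5, 15.9 and 15.6 FPKM in WT and 15.96, 15.1 and 14.8 FPKM in Fyco1-/-, overlapping. Kif16b encodes a motor of early endosomes and had the lowest log2 fold change of the 38 genes (-0.32, SE 0.12, limma adjusted p = 0.127). It measured 1.91, 1.66 and 1.66 FPKM in WT and 1.3, 1.2 and 1.41 FPKM in Fyco1-/-, again without overlap. Kif13b, a relative of Kif13a that binds membrane scaffold proteins, was the least abundant motor gene at 0.679, 0.818 and 0.779 FPKM in WT and 0.568, 0.594 and 0.545 FPKM in Fyco1-/- (log2 -0.23, adjusted p = 0.343). At this low level the log2 fold change depends on the added constant, and was -0.36 with 0.1 and -0.16 with 1 in place of 0.5. Its values rest on an estimated 134 to 213 reads each.

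Among the remaining kinesins none was called, and 1 (Kif21a) had an unadjusted p under 0.05 by limma and none was called in the authors' deposited table. Kif21a, a kinesin-4 that restrains microtubule growth at the cell cortex, measured 6.92, 6.86 and 6.30 FPKM in WT and 5.79, 5.43 and 5.55 FPKM in Fyco1-/- (log2 -0.24, SE 0.08, adjusted p = 0.0832). Its genotypes did not overlap. Kifc3, a minus-end directed kinesin found at adherens junctions, measured 9.02, 10.4 and 9.77 FPKM in WT and 14.4, 8.55 and 10.5 FPKM in Fyco1-/-. The single library Fyco1-/- A set its positive log2 fold change (0.16, SE 0.16, adjusted p = 0.606), which was -0.03 without that library. Kif2a, which takes microtubules apart at their ends, and Kif26b, a kinesin-11 of non-canonical Wnt signalling, ranged over 5.76 to 6.81 FPKM and 4.69 to 5.48 FPKM across all libraries with overlapping genotypes.

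**Figure D2:**
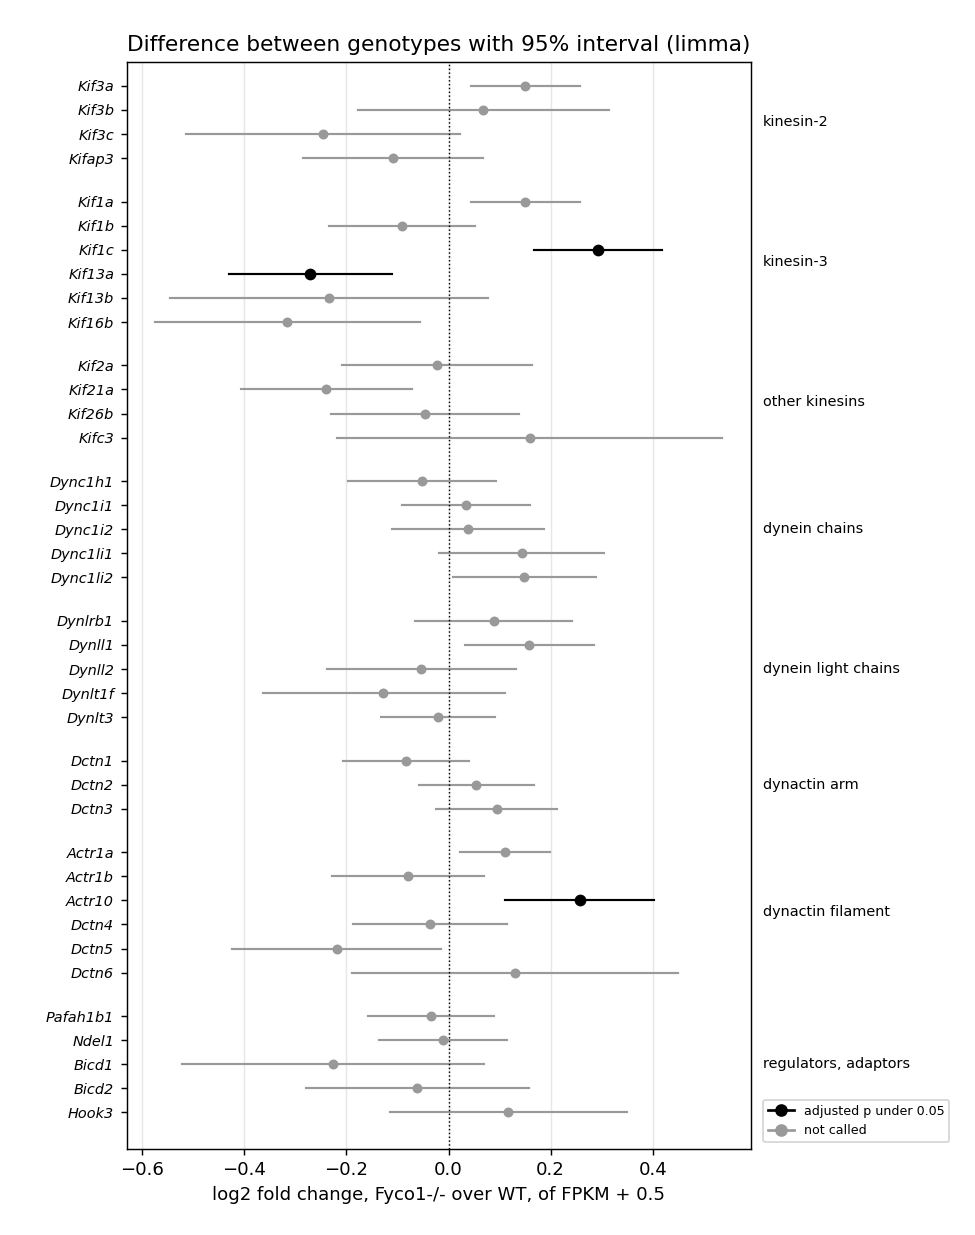
Log2 fold change of each motor gene, Fyco1-/- over WT, on the log2(FPKM + 0.5) scale, with its 95% interval from limma and black marks for genes with an adjusted p under 0.05. Kif1c, Actr10 and Kif13a are the 3 black points at 0.29, 0.26 and -0.27, and intervals of the genes not called reach from -0.57 (Kif16b) to 0.54 (Kifc3).

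Dynein is built on the motor chain Dync1h1, with intermediate chains (Dync1i1, Dync1i2), light intermediate chains (Dync1li1, Dync1li2) and light chains that hold the complex together. None of the 5 larger chains was called by limma, 1 (Dync1li2) had an unadjusted p under 0.05, and Dync1li2 is called in the authors' deposited table (log2 0.19, adjusted p = 0.0119). The motor chain gene Dync1h1 ran from 14.5 to 16.3 FPKM in WT and from 14.6 to 15.8 FPKM in Fyco1-/- (log2 -0.05, 95% interval -0.20 to 0.09). Dync1i1, known as the neuronal intermediate chain, measured 15.5, 15.3 and 16.4 FPKM in WT and 15.9, 16.5 and 15.8 FPKM in Fyco1-/-. The broadly expressed Dync1i2 measured 12.0, 10.8 and 10.7 FPKM in WT and 11.2, 11.5 and 11.8 FPKM in Fyco1-/-. Both intermediate chain genes overlapped between genotypes, and Dync1i1 had the higher FPKM of the pair in all 6 libraries. By GENCODE M21 exon lengths, Dync1i1 had fewer estimated reads (943 to 1147) than Dync1i2 (1539 to 1851). Dync1li2, which binds adaptors, measured 25.5, 27.7 and 23.4 FPKM in WT and 28.7, 28.4 and 27.8 FPKM in Fyco1-/-, narrowly without overlap (log2 0.15, SE 0.06, limma adjusted p = 0.18, and log2 0.09 without WT C). Its sister Dync1li1, which lies on chromosome 9 as Fyco1 does, measured 24.2, 23.8 and 22.0 FPKM in WT and 28.5, 23.5 and 25.6 FPKM in Fyco1-/- (log2 0.14, SE 0.07, adjusted p = 0.256), and its log2 fold change was 0.07 without Fyco1-/- A. Both light intermediate chain genes stood at similar levels, above the motor chain.

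The light chain genes included the most abundant of the 38. Dynll2, a dimeric hub of the LC8 family, measured 139, 161 and 137 FPKM in WT and 156, 132 and 134 FPKM in Fyco1-/- (log2 -0.05, 95% interval -0.24 to 0.13). Its level varied between libraries of 1 genotype more than between genotypes, and the log2 fold change was 0.02 without WT B. In WT B 4 of the 5 skeletal muscle markers were at their highest (Tnnt3 7.29, Myh8 5.27, Ckm 2.43 and Myh3 0.504 FPKM). This list summed to 26.3 to 40.6 FPKM in WT and 39.7 to 49.1 FPKM in Fyco1-/-, most of it Actn2. Actn2 was even across WT (24.9, 25.1 and 24.7 FPKM) and was called higher in Fyco1-/- (47.9, 39.1 and 41.5 FPKM, limma adjusted p = 0.000147). The other 4 markers had lower means in Fyco1-/- than in WT. The part of muscle markers in the Dynll2 values was not tested. Dynll1, the other LC8 gene, measured 52.8, 52.1 and 46.9 FPKM in WT and 59.5, 55.8 and 54.2 FPKM in Fyco1-/-. The Fyco1-/- values of Dynll1 all exceeded those of WT (log2 0.16, SE 0.06, limma adjusted p = 0.119, and log2 0.11 without WT C), and the gene was called with median-of-ratios scaling (adjusted p = 0.0271) and in the authors' deposited table (log2 0.20, adjusted p = 0.00597). Dynlrb1, of the roadblock light chain family, measured 68.4, 66.4 and 72.9 FPKM in WT and 70.2, 82.3 and 68.8 FPKM in Fyco1-/-, a wide overlap in which Fyco1-/- B stood highest. Dynlt3, of the Tctex family, stayed within 29.1 to 31.6 FPKM in all 6 libraries (log2 -0.02, SE 0.05). None of the 5 light chain genes was called by limma, and 1 (Dynll1) had an unadjusted p under 0.05.

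Dynlt1f, the other Tctex gene, has near-identical copies on chromosome 17, so some reads may fit more than 1 of them. Its coding sequence of 339 bases, without the stop codon, is the same as in Dynlt1a and Dynlt1c and differs from Dynlt1b by C21A, counted from 1 at the first base of the start codon. The first 120 coding bases from GENCODE M21 (GRCm38, 5′ to 3′) are shown because this capital base is the only difference within the coding sequences of the 4 genes. The Dynlt1f coding span is chr17:6649270-6655800 on the minus strand, and that of Dynlt1b is chr17:6430212-6435964 on the plus strand.
Dynlt1f: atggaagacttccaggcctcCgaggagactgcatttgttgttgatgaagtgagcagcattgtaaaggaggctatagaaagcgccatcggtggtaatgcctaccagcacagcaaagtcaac
Dynlt1b: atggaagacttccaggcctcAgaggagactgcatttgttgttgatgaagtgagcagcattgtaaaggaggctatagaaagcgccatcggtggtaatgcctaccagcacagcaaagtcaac
Over the 771-base transcript compared, Dynlt1f matched Dynlt1c at 99.87%, Dynlt1b at 99.092% and Dynlt1a at 98.573%. The gene has 3627 exon bases in GENCODE M21, and those outside this transcript were not compared. How the authors assigned reads that fit several copies is not given in the sources used here. Dynlt1f was listed at 6.52, 8.70 and 8.40 FPKM in WT and 6.57, 7.36 and 7.43 FPKM in Fyco1-/-, overlapping. Dynlt1b was listed at 11.5, 10.4 and 11.4 FPKM in WT and 12.6, 13.5 and 13.5 FPKM in Fyco1-/-, just short of a call by limma (log2 0.24, adjusted p = 0.0507). In the authors' deposited table, from DESeq2, its adjusted p was 0.2996. The sum over the 4 copies was 23.6, 22.7 and 24.3 FPKM in WT and 24.1, 25.7 and 25.9 FPKM in Fyco1-/-, which overlapped. The pseudogene Dynlt1-ps1, 100% identical to Dynlt1f over 342 bases and listed at up to 1.54 FPKM, is not in that sum. Between libraries the share of that sum listed under Dynlt1f moved from 27.3% to 38.3%, so the split between copies varied more than their sum.

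Dynactin has a filament of the actin-related protein Arp1 (Actr1a, Actr1b), a pointed end cap (Actr10, Dctn4, Dctn5, Dctn6) and a projecting shoulder and arm (Dctn1, Dctn2, Dctn3) that contacts dynein. Actr10 (ENSMUSG00000021076, GRCm38 chromosome 12, 70937857 to 70964718, plus strand) encodes Arp11, which caps the filament. It measured 12.6, 11.5 and 11.5 FPKM in WT and 13.5, 14.8 and 14.5 FPKM in Fyco1-/-, without overlap. Actr10 rose from 11.9 ± 0.619 to 14.3 ± 0.67 FPKM (n = 3 per genotype, log2 0.26, SE 0.07, limma adjusted p = 0.0389). The call was lost without WT B (adjusted p = 0.126), WT C (0.0918), Fyco1-/- B (0.131) or Fyco1-/- C (0.112), or with no filter on low values (0.0928). In its 4022-base transcript, a stretch of up to 208 bases is at least 95% identical to transcripts of 23 other genes. The authors' deposited table calls Actr10 (log2 0.30, adjusted p = 0.00144), as it does Kif1c (log2 0.34, adjusted p = 7.38e-08) and Kif13a (log2 -0.23, adjusted p = 0.0226).

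The other cap genes did not pass. Dctn5 measured 10.1, 9.94 and 10.8 FPKM in WT and 9.97, 7.66 and 8.75 FPKM in Fyco1-/- (log2 -0.22, SE 0.09, limma adjusted p = 0.177), with Fyco1-/- A among the WT values. Its log2 fold change was -0.13 without Fyco1-/- B and -0.31 without Fyco1-/- A. Dctn6 was split within Fyco1-/-, at 12.1 and 11.6 FPKM in A and B but 7.92 FPKM in C, around 9.04 to 9.88 FPKM in WT. Without Fyco1-/- C the Dctn6 log2 fold change was 0.32 (adjusted p = 0.0442), against 0.13 (adjusted p = 0.622) with all libraries, 0.02 without Fyco1-/- A and 0.05 without Fyco1-/- B. Dctn4 stayed within 7.33 to 7.95 FPKM in every library. These 3 cap genes thus gave 3 different pictures, with no call in any of them.

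The filament gene Actr1a measured 62.4, 60.5 and 60.4 FPKM in WT and 67.2, 65.3 and 65.5 FPKM in Fyco1-/-. The genotypes did not overlap, yet the log2 fold change of 0.11 (SE 0.04) was not called by limma (adjusted p = 0.115), while the authors' deposited table calls it (log2 0.16, adjusted p = 0.0171). Actr1b, its paralog, measured 23.8, 21.8 and 19.9 FPKM in WT and 20.51, 20.54 and 20.68 FPKM in Fyco1-/-, overlapping. In the arm, Dctn2, or dynamitin, measured 50.5, 52.0 and 56.1 FPKM in WT and 53.3, 56.8 and 54.7 FPKM in Fyco1-/-. Dctn3, a small subunit beside it, measured 28.0, 30.2 and 30.5 FPKM in WT and 32.2, 30.3 and 32.2 FPKM in Fyco1-/-. Dctn1, which binds microtubules and dynein, ran from 25.2 to 27.2 FPKM in WT and from 23.3 to 25.4 FPKM in Fyco1-/-. All 3 arm genes overlapped between genotypes, with no limma call, no unadjusted p under 0.05 and no call in the authors' deposited table. FPKM within dynactin ranged over 8.44 times from Dctn4 to Actr1a, a ratio that depends on the gene lengths used.

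The 250 bases upstream of the RefSeq starts of Kif1c and Actr10 are shown because these are the genes that rose (GRCm38.p6, 5′ to 3′ on the gene's strand). The Kif1c stretch is chr11:70700298-70700547 and the Actr10 stretch is chr12:70937607-70937856, both on the plus strand. Capitals mark the GC box GGGCGG on either strand.
Kif1c: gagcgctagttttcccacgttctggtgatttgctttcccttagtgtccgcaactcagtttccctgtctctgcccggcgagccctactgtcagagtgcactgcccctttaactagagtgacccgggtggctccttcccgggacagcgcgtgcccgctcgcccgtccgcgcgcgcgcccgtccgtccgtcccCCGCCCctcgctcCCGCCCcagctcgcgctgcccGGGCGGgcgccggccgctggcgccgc
Actr10: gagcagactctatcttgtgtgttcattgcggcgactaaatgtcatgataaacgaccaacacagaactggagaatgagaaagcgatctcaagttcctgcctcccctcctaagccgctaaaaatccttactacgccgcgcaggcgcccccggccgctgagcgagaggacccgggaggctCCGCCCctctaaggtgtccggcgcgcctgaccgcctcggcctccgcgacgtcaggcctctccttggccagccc
The Kif1c stretch holds 3 GC boxes in 70.8% G and C, and the Actr10 stretch holds 1 in 61.2%. Neither holds CACGTG, the E-box core, CCAAT, the CCAAT box, or TGCTGA, the core of a Maf element, on either strand, which says only that these letters are not in the window. The 4 motifs were searched separately, so matches could overlap, and CACGTG reads the same on both strands. Among 37 such windows of the 31 motor genes that matched RefSeq, GGGCGG occurred in 62.2%, against 32.7% of all 32851 windows. CCAAT occurred in 35.1% against 33.8%, TGCTGA in 13.5% against 16.1% and CACGTG in 5.4% against 6.0%. Motor gene windows had a median of 59.6% G and C against 52.4%. The windows compared against were not limited to genes expressed in these lenses, and some motor genes gave more than 1 window. The GGGCGG difference is therefore not shown to be particular to motor genes.

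Among the regulators and adaptors, Pafah1b1 (Lis1) and Ndel1 control the dynein motor, and Bicd1, Bicd2 and Hook3 couple it to cargo. Pafah1b1 was the steadiest, at 13.2, 13.3 and 13.3 FPKM in WT and 13.07, 12.75 and 13.01 FPKM in Fyco1-/-. Its genotypes did not overlap, but the difference was small (log2 -0.03, 95% interval -0.16 to 0.09). Ndel1 ranged over 25.3 to 28.2 FPKM and Hook3 over 2.39 to 3.19 FPKM, both overlapping. Bicd1 measured 0.974, 0.896 and 0.873 FPKM in WT and 0.763, 0.652 and 0.713 FPKM in Fyco1-/-, below WT in every library but not called (log2 -0.23, SE 0.13, limma adjusted p = 0.333). Bicd2 measured 3.32, 3.17 and 2.88 FPKM in WT and 2.88, 3.23 and 2.81 FPKM in Fyco1-/-. None of these 5 genes had a limma call, an unadjusted p under 0.05 or a call in the authors' deposited table.

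For 8 paralog families the share of 1 gene in the family's summed FPKM was compared, a measure that does not change with the scaling of a library. Dynll2 made up 72.4%, 75.6% and 74.6% of the LC8 sum in WT and 72.4%, 70.2% and 71.2% in Fyco1-/-, or 74.2% ± 1.62 against 71.3% ± 1.09 (SD, n = 3 per genotype). WT A and Fyco1-/- A nearly met. Actr1a made up 72.4%, 73.5% and 75.3% of the Arp1 sum in WT and 76.6%, 76.1% and 76.0% in Fyco1-/-. Bicd2 made up 77.3%, 77.95% and 76.7% of the Bicd sum in WT and 79.1%, 83.2% and 79.8% in Fyco1-/-. By GENCODE M21 exon lengths, Bicd1 had an estimated 348 to 492 reads per library and Bicd2 316 to 401. The level of this share therefore depends on the lengths used. In these 3 families the genotypes did not overlap, by 2.92 points lower for Dynll2 and 2.51 and 3.34 points higher for Actr1a and Bicd2. Each gave an exact permutation p of 0.1, two-sided, the smallest that 3 against 3 libraries allow, and 0.267 after Benjamini-Hochberg adjustment over the 8 families. The shares of Dync1li2, Dync1i1, Kif3a, Kif1a and Kif13a overlapped between genotypes (exact permutation p from 0.2 to 1). The Dync1li2 and Dync1i1 shares differed by 0.09 and -0.07 points in the mean.

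**Figure D3:**
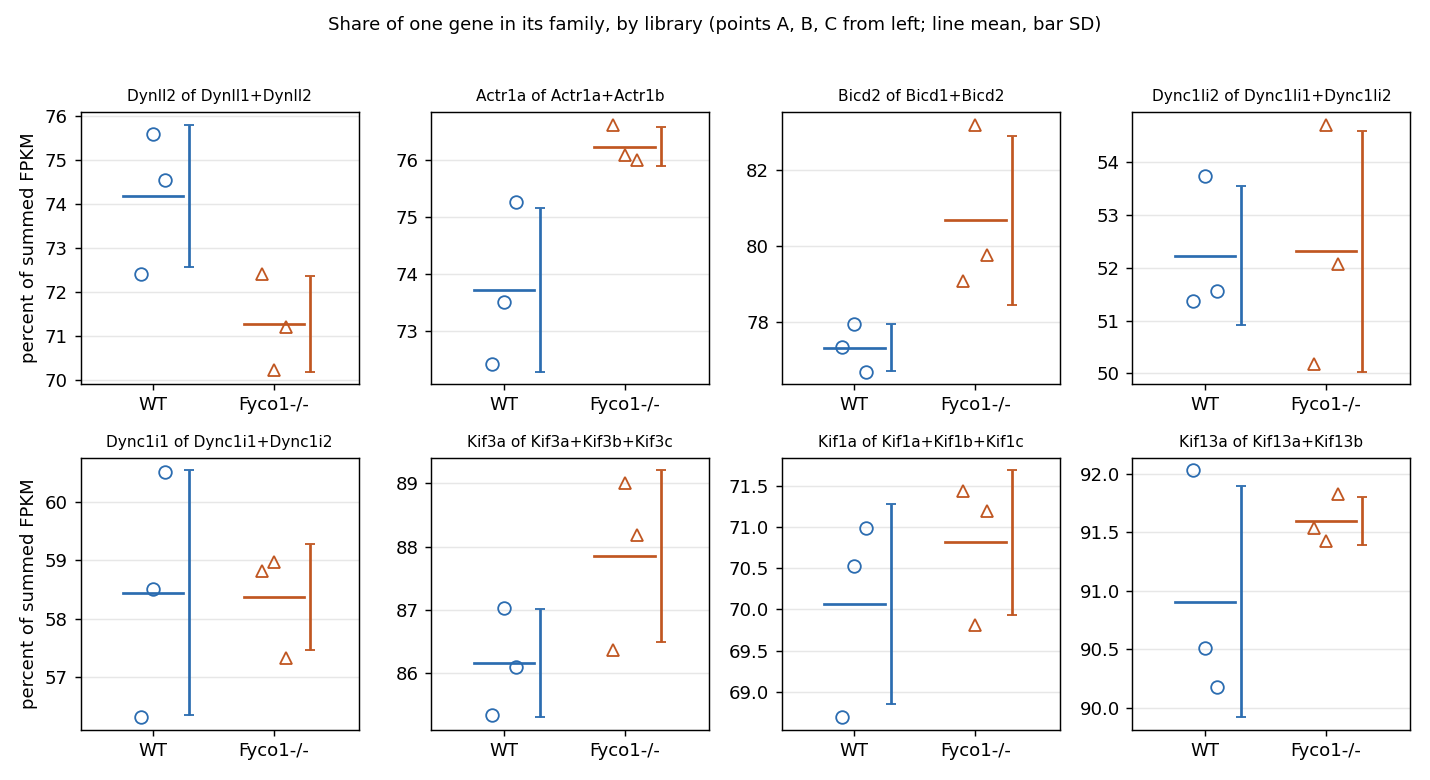
Share of 1 gene in the summed FPKM of its paralog family, in percent, for each library of WT (circles) and Fyco1-/- (triangles), with the mean as a line and the SD as a bar, on axes that do not start at 0. Dynll2, Actr1a and Bicd2 are the 3 panels in which the genotypes do not overlap.

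In the authors' deposited table, from DESeq2 on read counts, 7 motor genes were higher and 1 lower in Fyco1-/- at an adjusted p under 0.05, which is 21.1% of the 38. Of the authors' deposited table as a whole, 9.37% of the 13066 genes with an adjusted p were called, 5.22% higher and 4.15% lower. The genes it adds to Kif1c, Actr10 and Kif13a are Kif1a, Kif3a, Dync1li2, Dynll1 and Actr1a. All 5 have Fyco1-/- values wholly above WT here, as 11.1% of all tested genes do, and log2 fold changes from 0.11 to 0.16. Those values come from the same 6 libraries as the authors' calls, so they are not an independent check. The median log2 fold change in the authors' deposited table was 0.026 for the motor genes and -0.004 for all genes with an adjusted p.

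Other motor genes were read from lists. The kinesin-1 genes, which encode the motor that Fyco1 is known to bind, and their light chains gave no limma call among 6 tested, 1 with an unadjusted p under 0.05 and 1 call in the authors' deposited table. Both were Kif5b, at 17.9, 17.0 and 17.3 FPKM in WT and 20.3, 20.3 and 18.8 FPKM in Fyco1-/- (log2 0.18, limma adjusted p = 0.0841). Of 6 tested interphase and ciliary kinesins outside the 38, 1 rose and none fell. It was Stard9, whose WT mean of 0.44 FPKM lies under the minimum of 0.5, so that it was tested only because of its Fyco1-/- values. Stard9 measured 0.577, 0.442 and 0.3004 FPKM in WT and 0.931, 1.10 and 1.07 FPKM in Fyco1-/- (log2 0.71, adjusted p = 0.0221), and the call was lost without WT B, WT C, Fyco1-/- B or Fyco1-/- C, or with no filter on low values (adjusted p up to 0.08). Of 8 other light chains and ciliary dynein genes none was called by limma or in the authors' deposited table, and 3 had an unadjusted p under 0.05. Of 25 other adaptors and regulators, 1 rose and 1 fell, close to the share of all tested genes. Trak2, which ties kinesin and dynein to mitochondria, rose from 3.75 ± 0.0431 to 6.13 ± 0.236 FPKM (n = 3 per genotype, log2 0.64, limma adjusted p = 0.000744), a larger change than in any of the 38. Mapre2, a microtubule end-binding protein gene, fell from 13.6 ± 0.469 to 10.7 ± 0.679 FPKM (n = 3 per genotype, log2 -0.33, limma adjusted p = 0.0133), a call lost when either WT B (adjusted p = 0.0578) or the Fyco1-/- C library (0.0503) was dropped.

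The mitotic kinesins, which work in the spindle of dividing cells, are left out of the 38 by rule. All 11 tested had a negative log2 fold change, from -0.49 (Kif2c) to -0.04 (Kif4) with a median of -0.26, whereas 17 of the 38 motor genes were positive and 21 negative. The median over all tested genes was -0.04. No mitotic kinesin was called by limma, 4 of the 11 had an unadjusted p under 0.05, against 24.4% of all tested genes, and none was called in the authors' deposited table. Kif15 measured 1.57, 1.54 and 1.002 FPKM in WT and 0.848, 0.755 and 1.016 FPKM in Fyco1-/- (adjusted p = 0.127), the smallest of this list, with overlapping genotypes. Their summed level was 15.0 to 19.9 FPKM in WT and 12.0 to 15.7 FPKM in Fyco1-/-. The difference between these lists was not tested.

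**Figure D4:**
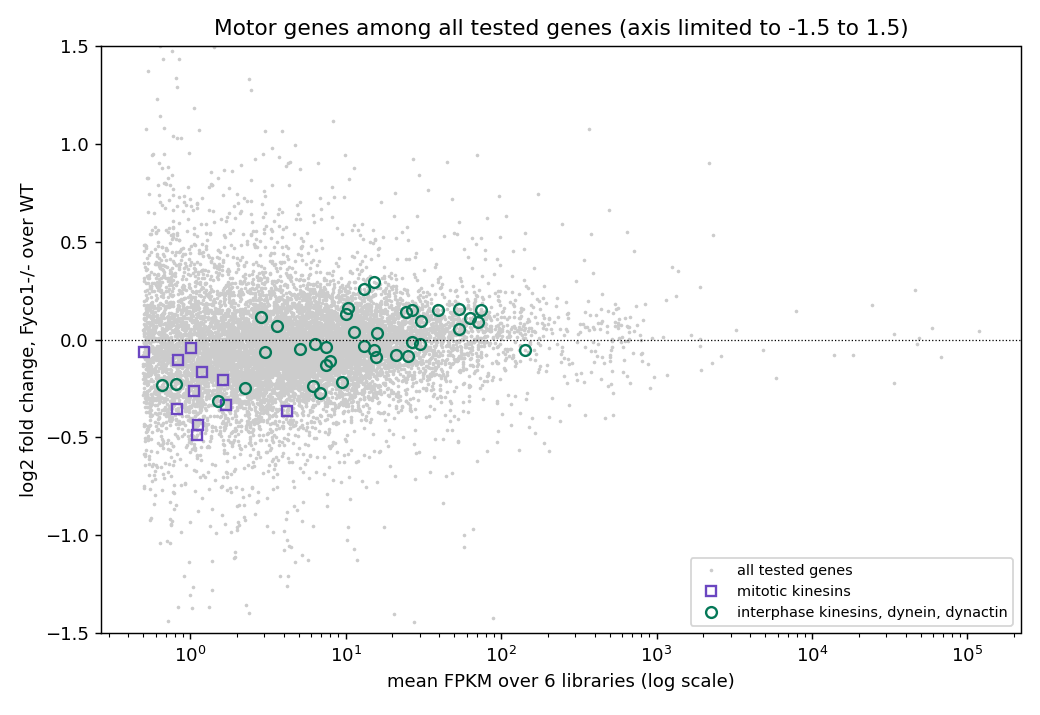
Log2 fold change, Fyco1-/- over WT, against mean FPKM over the 6 libraries on a log scale, for all tested genes (grey dots, 51 of them beyond the limits of 1.5), the 38 motor genes (circles) and the 11 tested mitotic kinesins (squares). The motor genes lie on both sides of 0 between -0.32 and 0.29, and the mitotic kinesins lie below 0 at low levels.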

How the data were processed

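RNA of 6 libraries from newborn lenses was measured, 3 per genotype. Per the series' design text, the authors aligned paired reads to GRCm38 with STAR 2.5, used HTSeq 0.6.1 for gene counts and computed FPKM. The log2 fold changes, p-values and adjusted p-values deposited by the authors come from their DESeq2 run, whose settings are not given in the sources used here. The annotation and strand setting are likewise not given.

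Genes with a mean of at least 0.5 FPKM (12001) entered a genotype-only model of log2(FPKM + 0.5), tested two-sided with limma 3.58.1 (R 4.3.3) under trended, robust moderation. The steps were tested on simulated data. Columns carry letters A, B and C, but deviations did not correlate by letter (-0.0305, 0.0281 and 0.0274), and the main model did not pair libraries. Such correlations cannot show whether libraries of 1 letter were collected or prepared together, which the labels do not say. Exon lengths and positions came from GENCODE M21 by symbol (93.2% of entries matched 1 gene). Of 32787 values of 1 to 20 reads, about 50% lay within 0.05 of a whole read at the depths estimated, where 10% would by chance, so depths are estimates and no counting intervals are given. Transcripts were compared by blastn 2.17.0, at 95% identity over 100 bases or more. Of the 38 genes 5 have such a partner (Dynlt1f, Dynll1, Actr10, Dync1li1 and Kif3a) and 8 share at least 50 exon bases with an opposite-strand gene.

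The 38 genes, the other lists and the tests were chosen with earlier results of these data known. Values in every library are given for called genes, the 8 most abundant, the 4 highest and 4 lowest log2 fold changes and the paralog pairs, with shares by library for the 3 families without overlap, and for a few added after values were seen (Dctn5, Dctn6, Pafah1b1, Dynlt1f). The labels do not say whether pooled lenses came from separate litters, so p-values measure the spread between these pools. From other lists, called genes or that with the smallest p are named, with Kif5b and Dynlt1b. Protein sequences were not used here. Alternatives changed 1 choice at a time.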

Additional observations from a re-analysis of the deposited data

How the results depend on the processing

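The 2 motor genes called higher became 1 with no filter on low values or with the replicate block, and 1 to 2 when any 1 library was left out. The 1 called lower became 0 with no filter, with median-of-ratios scaling or with the replicate block, and 0 to 1 without 1 library. All calls numbered 1012, 568 with no filter, and 607 to 863 without 1 library (612 without WT A, 607 without WT B, 673 without Fyco1-/- B, 642 without Fyco1-/- C). The main model did not pair libraries by letter, and the replicate block, which does, gave 929 calls. Lost calls of Actr10 and Kif13a are given with those genes, apart from the replicate block (adjusted p = 0.0703 and 0.0616), and their causes were not tested. Of 568 single-gene values under 15 alternatives, 536 kept direction and side of the threshold. Signs turned in 9 genes, none called: with median-of-ratios scaling Dctn4 (0.0065), Dynlt3 (0.0244), Kif2a (0.0201), Ndel1 (0.0356) and Pafah1b1 (0.0099), with quantile normalization Bicd2 (0.0069), Dctn4 (0.0007), Kif26b (0.0057) and Kif2a (0.014), without WT A Dynlt3 (0.0089) and Kif2a (0.0153), without WT B Dynll2 (0.0218), without WT C Ndel1 (0.0157), without Fyco1-/- A Kifc3 (-0.033), without Fyco1-/- B Ndel1 (0.0249) and without Fyco1-/- C Kif2a (0.0354). Over the libraries left out, the lowest and highest values of these were -0.0763 and 0.0354 (Kif2a), -0.033 and 0.3268 (Kifc3), -0.1308 and 0.0218 (Dynll2), -0.0479 and 0.0089 (Dynlt3) and -0.0519 and 0.0249 (Ndel1). Genes near 1 FPKM, such as Kif13b and Bicd1, had intervals wide enough that changes of their size were not detectable.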

Other observations

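Genes for proteins that bind or modify the microtubule track were read as a further list. Of 21 tested genes of microtubule-associated proteins and tubulin modifying enzymes, 1 rose and 2 fell by limma (background 3.42% higher and 5.02% lower), with a median log2 fold change of -0.05 against -0.04 for all tested genes. Map7, whose product recruits kinesin-1 to microtubules, measured 48.5, 51.7 and 49.1 FPKM in WT and 31.8, 37.0 and 35.9 FPKM in Fyco1-/-, well apart. Map7 fell from 49.8 ± 1.699 to 34.9 ± 2.73 FPKM (n = 3 per genotype, log2 -0.51, SE 0.06, limma adjusted p = 0.000744), and the call was kept in all 15 alternatives. Map7d2, of the same family, fell from 3.44 to 2.45 FPKM (log2 -0.42, limma adjusted p = 0.0258), a call lost without any 1 library other than Fyco1-/- C and with no filter on low values (adjusted p up to 0.0982). Map7d1, the third relative listed, overlapped between genotypes (log2 0.08, limma adjusted p = 0.679). Map1a, a microtubule-associated protein known from neurons, measured 1.35, 1.45 and 1.26 FPKM in WT and 2.54, 2.55 and 2.31 FPKM in Fyco1-/-. Map1a rose 1.83-fold in mean FPKM (log2 0.68, SE 0.11, limma adjusted p = 0.00374), and this call too was kept in all 15 alternatives.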
